A study of Mus musculus with 16 samples.

Results

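Poly(A) RNA of the cerebellum was compared between aged control mice, at 18 months of age after natural aging, and young control mice, at 2 months of age. The comparison rests on 8 libraries of the 16 in the series, with 4 libraries from each age. All were from C57BL/6 mice, which the study describes as female, and each cerebellum was dissected and flash frozen before extraction with TRIzol. The other 8 libraries came from aged and young Acsl6-/- mice, which lack ACSL6, an acyl-CoA synthetase that prepares polyunsaturated fatty acids for membrane phospholipids, through a whole-body deletion made with CMV-Cre. The sample titles call the control mice WT. The methods give no further genotype for them, no hour of collection and no litter. The 2 ages were separate animals, so collection hour, cohort and dissection cannot be told apart from age. A bulk cerebellum holds every cell type at once. Fewer cells of a type and less RNA per cell cannot be told apart in it.

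The cerebellar cortex is built from small, densely packed granule cells, whose axons (parallel fibers) release glutamate onto the Purkinje cells that carry the output of the cortex. Molecular layer interneurons inhibit the Purkinje cells, and Bergmann glia, a radial form of astrocyte, wrap their synapses. Microglia are the resident macrophages of the tissue, and in aging mouse brain they and the astrocytes are known for a rise in genes of complement, antigen presentation and interferon response.

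The deposited values were normalized counts (reads in a gene divided by 1 size factor per library). A difference is given as log2 of the aged control value minus log2 of the young control value, after adding 1, with its standard error from limma. A gene was called at a Benjamini-Hochberg adjusted p under 0.05 over 17042 genes. The libraries held 18546674 to 27569428 reads in genes in aged control mice and 16953548 to 21886692 in young control mice, as recovered from the values. The defining cerebellar markers were present in all 8: Gabra6, a GABA receptor subunit of granule cells, had 12354, 11671, 11923 and 12624 normalized counts in aged control mice, against 15088, 15586, 15383 and 12489 in young control mice, and the Purkinje cell gene Pcp2 had 5739.7, 5152, 4872 and 5184 in aged control mice and 5105, 5092, 5185 and 4765 in young control mice. Acsl6 itself had 5839, 5918, 6086 and 6037 normalized counts in aged control mice and 6974, 6840.2, 6902 and 6296 in young control mice, a difference of -0.18 ± 0.04 (adjusted p = 0.00135). Xist, the RNA that coats the inactive X chromosome, was between 20504 and 27491 in all 8 libraries and was higher in aged control mice (log2 difference 0.34 ± 0.04, adjusted p = 4.14e-06).

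Markers of tissue beside the cerebellum differed between libraries of the same age. Ttr, the transthyretin gene and a main product of the choroid plexus, had 209.5, 87.9, 26551 and 8768 normalized counts in aged control mice and 5792, 435, 99.3 and 7943 in young control mice. It was above 5000 in 2 libraries of each age. The choroid plexus genes Kl, Folr1 and Aqp1 were high in those same 4 libraries. The library of aged control 3 stood apart in other ways: its 10 highest genes took 8.21% of counts, against 4.36% to 4.83% in the other 7, and Gm42418, a gene model that overlaps ribosomal RNA sequence, had 686717 normalized counts, against 13010 to 41707. Among Acsl6-/- libraries, aged Acsl6-/- 1 also had Ttr above 5000 (12123). Counts are therefore given also without these 5 libraries high in Ttr, a fit that leaves 2 control libraries per age and has fewer calls in most lists.

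Age separated the 8 libraries on the first principal component, which held 45.9% of their variance. Aged control mice had 2610 genes higher (15.3% of the genes tested) and 2723 lower (16%) than young control mice. Called differences were small for most genes, with a median size of 0.33 on the log2 scale. Of the called genes, 395 were higher by at least 1 and 110 were lower by at least 1 on the log2 scale. The 4 aged control libraries did not overlap the 4 young control libraries in 30.3% of all genes. Without the 5 libraries high in Ttr (4 control and 1 Acsl6-/-), which leaves 2 control libraries per age, 1350 genes were higher and 1423 lower, and leaving out any 1 of the 16 libraries gave between 2142 and 2660 higher and between 2224 and 2766 lower.

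The 15 largest rises included complement genes and genes best known from other tissues. C3, the central protein of the complement cascade, had 96.7, 109.8, 110.2 and 80.5 normalized counts in aged control mice, against 14, 7.4, 2.9 and 4.7 in young control mice. All 4 aged libraries lay far above all 4 young ones, and the log2 difference was 3.78 ± 0.31 (adjusted p = 2.00e-07). C4b (ENSMUSG00000073418, chromosome 17 of GRCm38 from 34728380 to 34743882, reverse strand), the complement component that is cleaved ahead of C3, had 1212, 1027, 1174 and 1458 in aged control mice and 296, 214, 207 and 201 in young control mice, a difference of 2.41 ± 0.13 (adjusted p = 5.79e-09). Lyz2, the lysozyme of macrophages and microglia, had 362, 308, 312 and 273 in aged control mice and 75.7, 73.8, 63.6 and 94.9 in young control mice (2.02). Abca8a, a lipid transporter of the ABC family, had 342, 264, 347 and 391 in aged control mice, against 71, 87.3, 70.4 and 86.4 in young control mice (2.07). In both genes the lowest aged library lay far above the highest young one.

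Mslnl, a mesothelin-like gene, had 122, 100, 103 and 116 normalized counts in aged control mice, against 16.3, 13.5, 22.2 and 10.3 in young control mice. Tcap, best known for a titin-binding protein of striated muscle, had 64.5, 48.3, 57.4 and 64 in aged control mice and 2.3, 7.4, 8.7 and 24.4 in young control mice. In both the groups did not overlap, and the log2 differences were 2.79 and 2.70.

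The falls of largest size were led by Ntf3 (ENSMUSG00000049107, chromosome 6 of GRCm38 from 126101412 to 126166910, reverse strand), which encodes neurotrophin-3, a growth factor expressed by granule cells. Ntf3 had 50.2, 20.9, 19.9 and 22.9 normalized counts in aged control mice, against 125, 132, 153 and 113 in young control mice (log2 difference -2.26 ± 0.22, adjusted p = 1.15e-06). Mybpc3, known for a myosin-binding protein of heart muscle, had 360.2, 534, 414 and 448 in aged control mice and 1844, 1902, 1928 and 1271 in young control mice (-1.98). Necab3, a neuronal calcium-binding protein gene, had 101, 119, 120.1 and 142 in aged control mice and 673, 714, 667 and 238 in young control mice (-2.13). In young control 4, Necab3 and Mybpc3 lay between the other young libraries and the aged ones. E2f1, a cell cycle transcription factor whose gene lies beside Necab3 on chromosome 2, had 25.6, 19.8, 27.5 and 25.6 in aged control mice and 62.9, 65.2, 63.6 and 34.8 in young control mice (-1.14), with young control 4 again the lowest of its group.

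Other large falls were in genes of the cell surface and of signaling. Adamts18, a secreted metalloprotease gene, had 182, 151, 241 and 207 normalized counts in aged control mice and 771, 709, 863 and 573 in young control mice (-1.90). Rasal1, which encodes a Ras GTPase-activating protein, had 122, 186, 142 and 175 in aged control mice and 639, 541, 568 and 403 in young control mice (-1.78). Car9, a carbonic anhydrase gene, had 81.5, 101, 97.2 and 114 in aged control mice and 321, 277, 326 and 248 in young control mice (-1.57). Ramp3, a partner of peptide hormone receptors, had 124, 138, 145 and 157 in aged control mice, against 417, 339, 359.7 and 349 in young control mice (-1.37). Mkrn3 and Zfp57, the first imprinted and the second a keeper of genomic imprints, fell by 2.06 and 1.35 on the log2 scale.

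**Figure D1:**
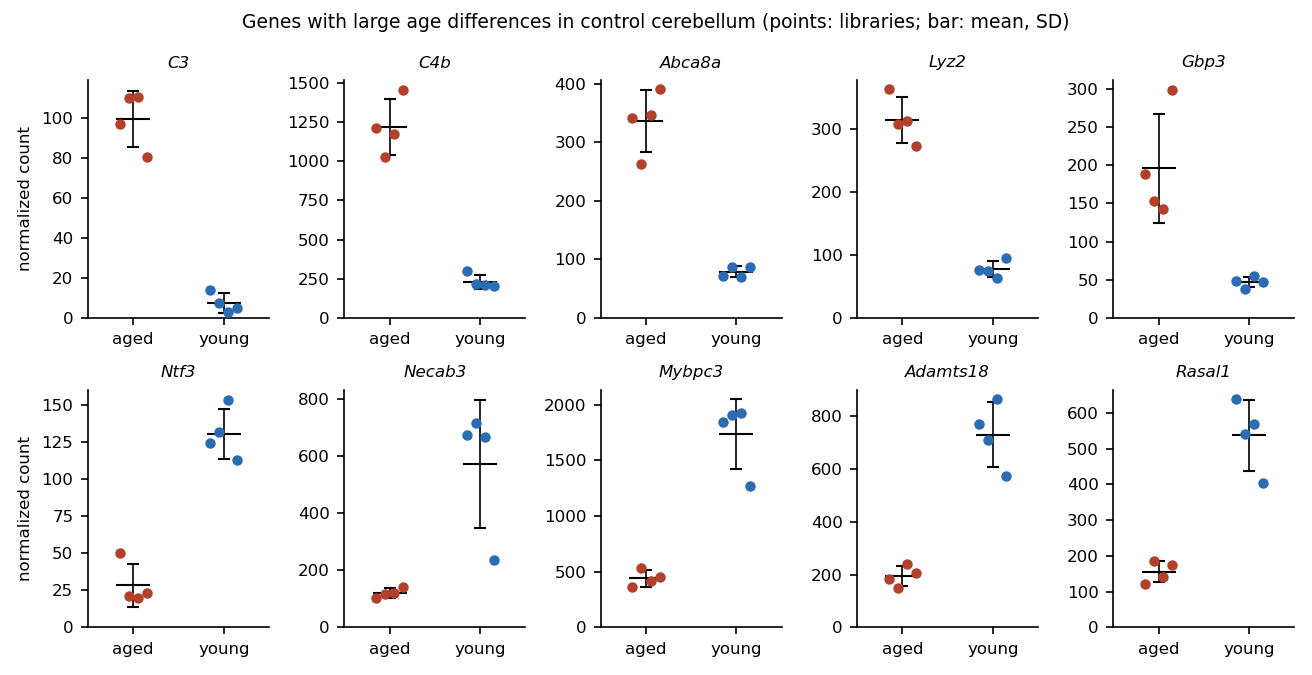
Normalized counts of 5 genes higher and 5 genes lower in aged control mice, with each library as a point (aged left, young right) and the mean with its SD as a bar; the y axes start at 0. The groups do not overlap in any panel, and 1 young library (young control 4) lies at 238 for Necab3 and 1271 for Mybpc3, below the other 3.

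Microglial genes were higher in aged control mice. Of 24 genes of resting (homeostatic) microglia, 23 rose and none fell, with a median log2 difference of 1.02, against 0.01 for all genes tested. The remaining gene, Sparc, had a difference of -0.19. Tmem119, a membrane protein specific to microglia in the brain, had 146, 151, 145 and 182 normalized counts in aged control mice and 67.5, 57.8, 59.8 and 60.1 in young control mice (1.33 ± 0.12, adjusted p = 3.32e-07). Ctss, a protease of the microglial lysosome, had 931, 776, 853 and 829.9 in aged control mice and 364, 290.1, 308 and 326 in young control mice (1.39). In both genes each aged library lay above each young library.

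Genes of disease-associated microglia, a state in which lipid-handling and phagocytic genes are switched on, also stood higher. Of 25 tested, 22 rose and none fell, with a median of 0.92. Itgax, which encodes the integrin CD11c, had 46.4, 30.8, 27.5 and 26.5 normalized counts in aged control mice and 2.3, 3.7, 2.9 and 1.9 in young control mice (3.18 ± 0.28, adjusted p = 4.09e-07). Mpeg1, a pore-forming protein gene of macrophages, had 509, 461, 462 and 458 in aged control mice and 232, 150, 173 and 192 in young control mice (1.35). Apoe, the main lipid carrier of the brain and mostly an astrocyte gene in healthy tissue, rose by less (0.34). Spp1, which encodes osteopontin, had a difference of 0.32 and did not pass the test (adjusted p = 0.251). Without the libraries high in Ttr, 18 genes of each microglial list rose and none fell. The pan-leukocyte gene Ptprc rose by 1.42 on the log2 scale, while 22 of 32 genes in the list of blood cell markers, including the T and B cell genes Cd3e, Cd8a and Cd79a, were not among the genes tested.

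Most complement genes were higher, those of the first step of the cascade included. C1qa, a subunit of the initiating C1q complex, had 558, 519, 505 and 513 normalized counts in aged control mice, against 206, 157, 194 and 210.4 in young control mice (1.45). C1qb, its partner subunit, had 441, 456, 403 and 462 in aged control mice and 184, 175, 163 and 166 in young control mice (1.35). Of 23 complement genes tested, 15 rose and 1 fell. The gene that fell was Cd46, a membrane protein known in humans as an inhibitor of complement (239, 231, 260.2 and 246 in aged control mice, 349, 336, 369 and 325 in young control mice, -0.50). With the libraries high in Ttr left out, 9 rose and 1 fell. C1qa and C1qb are members of the homeostatic microglia list too.

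Genes that load and present antigen were higher as well. Of 21 MHC class I genes, 16 rose and none fell (median 0.64). B2m, the invariant light chain of class I molecules, had 2126, 1973, 2121 and 2003 normalized counts in aged control mice and 1129, 1013, 1085 and 1109 in young control mice (0.92 ± 0.09, adjusted p = 1.64e-06), and Tap2, a subunit of the peptide transporter, had 332, 326, 364 and 349 in aged control mice and 199, 175, 207 and 210.4 in young control mice (0.79). H2-Q6 had a larger difference (1.96), but it shares near-identical sequence with other H2-Q genes, so its reads may include theirs. Nlrc5, the transactivator of class I genes, had 50.2, 63.7, 65.8 and 106 in aged control mice and 15.1, 28.3, 14.5 and 16 in young control mice (1.90). Of 9 class II genes tested, 5 rose and none fell, among them H2-Aa (46.4, 36.2, 46.7 and 34.8 in aged control mice, 21, 12.3, 15.4 and 14.1 in young control mice) and Cd74, the invariant chain (116, 65.9, 119 and 87.8 in aged control mice and 46.6, 47.9, 42.4 and 30.1 in young control mice). Without the libraries high in Ttr, 12 class I and 3 class II genes rose and none fell. B2m is in the disease-associated microglia list too, and Psmb8 is in both the class I and interferon lists. Ctss is in the class II, homeostatic microglia and lysosome lists.

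The interferon response list had the largest median difference of the 41 lists. Of its 49 genes, 40 rose and none fell, with a median of 1.16. Ifit2, an interferon-induced RNA-binding protein gene, had 242, 212, 173 and 324 normalized counts in aged control mice and 76.8, 94.7, 119.6 and 101 in young control mice (1.25 ± 0.17, adjusted p = 3.02e-05). Gbp2, a guanylate-binding protein gene of cell-autonomous defense, had 117, 123, 78.8 and 141 in aged control mice and 34.9, 24.6, 40.5 and 27.2 in young control mice (1.82). Its neighbor Gbp3 had 189, 154, 143 and 299 in aged control mice, against 47.7, 38.1, 55 and 47 in young control mice (1.99). Ifit3 had 396, 458, 349.7 and 1071 in aged control mice and 133, 105, 135 and 94.9 in young control mice (2.14). Aged control 4 was the highest library for each of these genes. Over the list, its mean log2 level was 1.76 above the young control mean, against 0.993 to 1.003 in the other 3 aged libraries and -0.17 to 0.24 in young control mice. Without aged control 4, 32 genes of the list rose and 1 fell, and without the libraries high in Ttr, 19 rose and 1 fell.

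Promoter sequence, 250 bases before to 50 bases after each RefSeq start site in GRCm38.p6, was searched for the interferon-stimulated response element on both strands, as GAAA, 2 bases of any kind and GAAA. The element is the site that interferon-activated transcription factors are known to bind. Windows were found for 35 of the 49 interferon genes, and 18 of these (51.4%) held a match. The share was 3.99% over 27025 genes with a window, whether tested here or not. Of 18 MHC class I genes with a window, 4 held one (22.2%). The stretches below are shown because they belong to genes with large differences described above, and capitals mark the match.
Gbp2 (chr3:142620584-142620633, forward strand): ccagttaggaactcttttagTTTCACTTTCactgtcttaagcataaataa
Gbp3 (chr3:142559979-142560028, forward strand): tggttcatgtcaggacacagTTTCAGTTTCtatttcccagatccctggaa
Ifit3 (chr19:34583353-34583402, forward strand): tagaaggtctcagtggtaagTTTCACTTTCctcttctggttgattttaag
Ifit3b (chr19:34607749-34607798, forward strand): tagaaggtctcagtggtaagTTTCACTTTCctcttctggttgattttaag
B2m (chr2:122147528-122147577, forward strand): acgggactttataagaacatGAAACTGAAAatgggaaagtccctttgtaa
The stretches of Ifit3 and Ifit3b are the same letter for letter at different places on chromosome 19, and reads of the 2 genes may have been split between them. Ifit3b had 279, 274, 201 and 638 normalized counts in aged control mice and 62.9, 60.2, 74.3 and 71.4 in young control mice (2.21). A match is a description of the letters and does not show that a factor binds there. Stat2, a transcription factor of the pathway, held a match too and had a log2 difference of -0.18 (adjusted p = 0.0576).

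**Figure D2:**
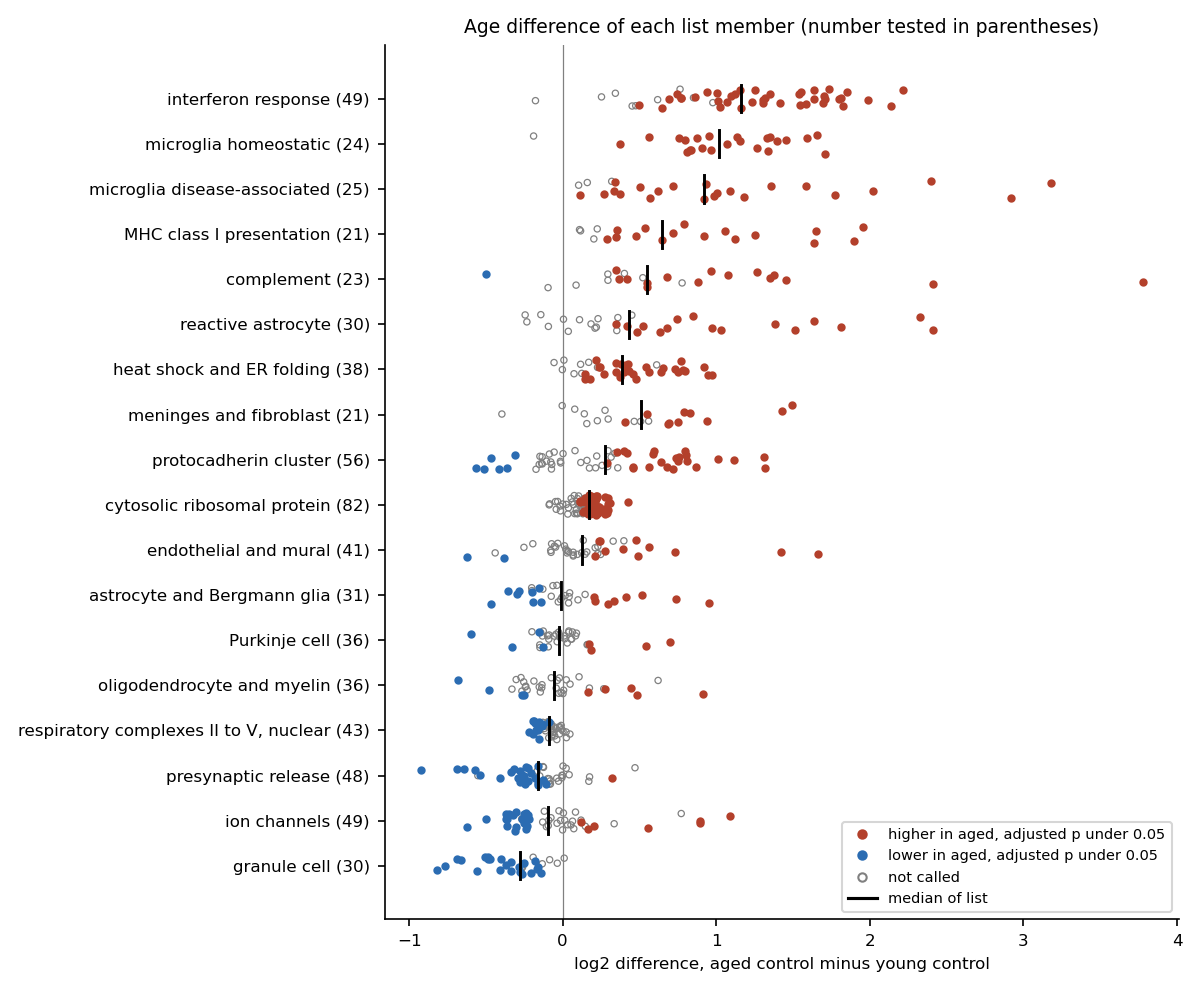
Log2 difference of aged control minus young control for each gene of 18 lists, 1 point per gene, with red points higher and blue points lower at an adjusted p under 0.05, open points not called, and a black line at the median of the list. The interferon list has its median at 1.16 and the granule cell list at -0.28.

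Astrocyte genes split by kind. Of 30 genes of reactive astrocytes, 16 rose and none fell, with a median of 0.43. Gfap, the intermediate filament that marks reactive astrocytes, had 5189.9, 4621, 4809 and 4915 normalized counts in aged control mice and 1831, 1483, 1971 and 1597 in young control mice (1.51 ± 0.10, adjusted p = 1.48e-08). Serpina3n, a protease inhibitor gene, had 106, 103, 110.2 and 123 in aged control mice and 40.7, 43, 39.5 and 43.2 in young control mice (1.39), and Vim, the gene of the filament protein vimentin, had 3724, 2831, 3139.8 and 3232 in aged control mice and 1935, 1949.8, 2089.7 and 2354 in young control mice (0.63). The list includes C4b, Gbp2 and Psmb8, which the complement and interferon lists hold too. Lcn2 and Timp1, often strong in acute injury, had differences of 0.23 and 0.04 and did not pass the test. Without the libraries high in Ttr, 10 of the 30 rose and none fell.

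Genes that mark astrocytes and Bergmann glia in general had no common direction, with a median of -0.01. Of 31 genes, 8 were higher and 8 lower (25.8% each, against 15.3% and 16% of all genes tested). Aqp4, the water channel of astrocyte endfeet, had 8038, 7466, 7560 and 7584 normalized counts in aged control mice and 4162, 3876, 3910.3 and 3876 in young control mice (0.95 ± 0.06, adjusted p = 2.02e-08). Hopx rose by 0.52 on the log2 scale. On the other side, Atp1b2, the glial sodium pump subunit, had 27003, 26075, 25768 and 27072 in aged control mice and 32229, 33152, 31825 and 31723 in young control mice (-0.28), and Gli1, a target of Sonic hedgehog signaling in Bergmann glia, had 359, 346, 336 and 364 in aged control mice and 459, 452, 445 and 439.6 in young control mice (-0.35). Without the libraries high in Ttr, 5 of these genes rose and 4 fell.

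Myelin genes as a whole were little changed in control mice. Of 36 oligodendrocyte and myelin genes, 5 rose (13.9%, against 15.3% of all genes tested) and 4 fell (11.1%, against 16%), with a median of -0.06. Mbp, a major myelin gene, had a difference of -0.03 (adjusted p = 0.883). Il33, a nuclear alarmin of oligodendrocytes, had 756, 584, 777 and 918 normalized counts in aged control mice and 417, 395, 346 and 435 in young control mice (0.92). Cldn11, the tight junction protein of myelin, had 1430.4, 1077, 1352 and 1809 in aged control mice and 2163, 1967, 1943 and 1721 in young control mice (-0.48), and Opalin had 83.4, 54.9, 91.1 and 109 in aged control mice and 133, 124, 126 and 148 in young control mice (-0.68). Aged control 2 was the lowest aged library in all 3 genes and in the list mean, which was 0.35 below the young control mean there. Without that library the median was 0.04, with 6 higher and 4 lower. Without aged control 4, 3 rose and 8 fell, and 3 rose also without aged control 1 or 3 or young control 2 or 3. With the libraries high in Ttr left out, 1 rose and 5 fell.

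Among precursor genes, Gpr17, a receptor of newly committed oligodendrocytes, had 247, 218, 239.5 and 257 normalized counts in aged control mice, against 396, 425, 394 and 367 in young control mice (-0.72 ± 0.09, adjusted p = 9.50e-06). Neu4, a sialidase gene of the same stage, fell by 0.43. Ednrb, the endothelin B receptor gene that astrocytes also express, had 2449, 2326, 2515 and 2478 in aged control mice and 1415, 1468, 1275 and 1344 in young control mice (0.83). The precursor list as a whole had 4 of 25 genes higher and 4 lower (16% each, against 15.3% and 16% of all genes tested). Without the libraries high in Ttr, 2 were higher and 3 lower.

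Granule cell genes were mostly lower in aged control mice. Of 30 genes, 23 fell and none rose, with a median of -0.28. Slc17a7, the vesicular glutamate transporter VGLUT1 of parallel fibers, had 8029, 8960.3, 8551 and 8568 normalized counts in aged control mice and 14191, 13846, 13452 and 13536 in young control mice (-0.69 ± 0.04, adjusted p = 1.01e-08). Grin2c, the NMDA receptor subunit of mature granule cells, had 8822, 8153, 8860.1 and 8863 in aged control mice and 14237, 13639.8, 14605 and 12445 in young control mice (-0.66). Grm4, a metabotropic glutamate receptor gene that acts at parallel fiber terminals, had 9570.2, 9214, 8507 and 7949 in aged control mice and 16078, 13648, 13606 and 16768 in young control mice (-0.77). Cbln1, the secreted organizer of the synapse between parallel fibers and Purkinje cells, had 14679.5, 13459.7, 12453 and 12982 in aged control mice, against 21443, 18538, 20072 and 18958 in young control mice (-0.56). In these 4 genes each aged library lay below each young library.

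Other granule cell genes had 1 young library near the aged ones. Calb2, the calretinin gene, had 4231, 3435, 3878 and 4456 normalized counts in aged control mice and 7879, 7897, 8124 and 4847 in young control mice (-0.82), and Gabra6, given above, fell by 0.26. Young control 4 was the lowest young library in both, and its mean over the list was -0.11, against 0.03 to 0.05 in the other 3 young libraries and -0.36 to -0.32 in aged control mice. Zic1, a transcription factor of the granule lineage, fell by 0.33, while Neurod2 and Etv1 had differences of -0.08 and -0.19 without passing the test. With the libraries high in Ttr left out, 20 of the 30 fell and none rose.

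Purkinje cell genes showed no shift as a group, with a median of -0.02. Of 36 genes, 4 were higher and 4 lower (11.1% each, against 15.3% and 16% of all genes tested). Pcp2 and Calb1 had differences of 0.05 and 0.01 (adjusted p = 0.491 and 0.858). Lhx5, a homeobox gene of Purkinje cells and interneurons, had 338, 391, 347 and 366 normalized counts in aged control mice and 541, 567, 552 and 524 in young control mice (-0.60). Plcb3, a phospholipase of metabotropic glutamate signaling in Purkinje cells, had 1251, 1358, 1265 and 1375 in aged control mice and 1538, 1641, 1861 and 1564 in young control mice (-0.33). Ebf2, a transcription factor of Purkinje subsets, went the other way with 357, 291, 351 and 317 in aged control mice, against 234, 198, 174 and 204 in young control mice (0.70). Without aged control 3 or 4, or without the libraries high in Ttr, 2 of these genes fell.

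Interneuron genes had 2 of 21 higher (9.5%, against 15.3% of all genes tested) and 6 lower (28.6%, against 16%). Calb2, given above with the granule cell genes, is in this list too. Lgi2, a secreted synaptic protein gene, had 2833, 3303, 2951 and 3249 normalized counts in aged control mice and 4284, 4051, 4108 and 4127 in young control mice (-0.43), and Cdh22, a cadherin gene, had 1189, 1378, 1363 and 1329 in aged control mice and 1736, 1888, 1812 and 1833 in young control mice (-0.47). Sst, the somatostatin gene, was the large exception with 73, 152, 64.3 and 106 in aged control mice, against 16.3, 39.3, 8.7 and 32.9 in young control mice (2.11 ± 0.52, adjusted p = 0.00516). Some brainstem markers, described below, rose as well. Among aged libraries, Sst was highest in aged control 2 and lowest in aged control 3. The mean log2 level of the brainstem list above young control was lowest in aged control 2 (0.78) and highest in aged control 3 (1.72). A link was not tested. In the fit without the libraries high in Ttr, 1 interneuron gene rose and 3 fell, and single libraries moved the number that rose to 1 (without aged control 4 or young control 1 or 3) or 4 (without young Acsl6-/- 2).

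Presynaptic genes that differed were nearly all lower in aged control mice. Of 48 genes of vesicle release, 26 fell and 1 rose, with a median of -0.16. Rims3, a protein of the active zone, had 3510.2, 3863, 3995 and 4057 normalized counts in aged control mice and 7317, 7542, 7622 and 6793 in young control mice (-0.92 ± 0.05, adjusted p = 8.21e-09). Nrxn2, a presynaptic adhesion gene, had 10096, 10427, 9928 and 10041 in aged control mice and 15556, 15013, 14933 and 14608 in young control mice (-0.57). Sv2b, a synaptic vesicle protein gene, had 4119, 4171, 4388 and 4176 in aged control mice and 6721, 5847, 5754 and 6199 in young control mice (-0.54). The gene that rose was Synpr, which encodes synaptoporin (0.32). When the libraries high in Ttr were left out, 16 fell and none rose.

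Postsynaptic genes that fell outnumbered those that rose. Of 41 scaffold and adhesion genes, 6 rose (14.6%, against 15.3% of all genes tested) and 13 fell (31.7%, against 16%). Of 41 genes in the glutamate and GABA receptor list, 6 rose (14.6%) and 14 fell (34%). Glra1, a glycine receptor subunit gene given below with the brainstem markers, is in the receptor list too and is among those that rose. Camk2b, the beta subunit of a calcium-dependent kinase, had 14167, 15381, 14559.7 and 14240.2 normalized counts in aged control mice and 18336, 17462, 18235 and 17094 in young control mice (-0.29). Gabrd, the delta subunit of tonic GABA receptors on granule cells, had 3819, 3827, 3425 and 3609 in aged control mice and 4889, 4458, 4615 and 4586 in young control mice (-0.34). Homer2, a postsynaptic scaffold gene, had 685, 739, 777 and 813 in aged control mice, against 402, 425, 427 and 597 in young control mice (0.72). Grin2b, an NMDA receptor subunit prominent early in life, had 599, 778, 644 and 626 in aged control mice and 405, 527, 425 and 517 in young control mice (0.50), while Grin2c, above, was lower. With the libraries high in Ttr left out, 2 scaffold and adhesion genes rose and 6 fell, and 5 receptor genes rose and 9 fell.

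Channel genes had 7 of 49 higher (14.3%, against 15.3% of all genes tested) and 20 lower (40.8%, against 16%). Kcna2, a potassium channel of axons and basket cell terminals, had 10011, 11753, 10022 and 10319 normalized counts in aged control mice and 16239, 16378, 15704 and 16383 in young control mice (-0.62 ± 0.04, adjusted p = 3.21e-08). Scn2a, a sodium channel subunit gene, fell by 0.37 on the log2 scale. Kcnt1, a sodium-activated potassium channel gene, had 10289.7, 10321, 10844 and 11105 in aged control mice and 13088, 13061, 13726 and 12763 in young control mice (-0.31). Cacna1i, a T-type calcium channel gene, rose with 3061, 2777, 3034 and 2988 in aged control mice, against 1958, 1976, 1918 and 2242 in young control mice (0.55). Without aged control 2 or young control 3, 4 channel genes rose, and without the libraries high in Ttr 4 rose and 17 fell.

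**Figure D3:**
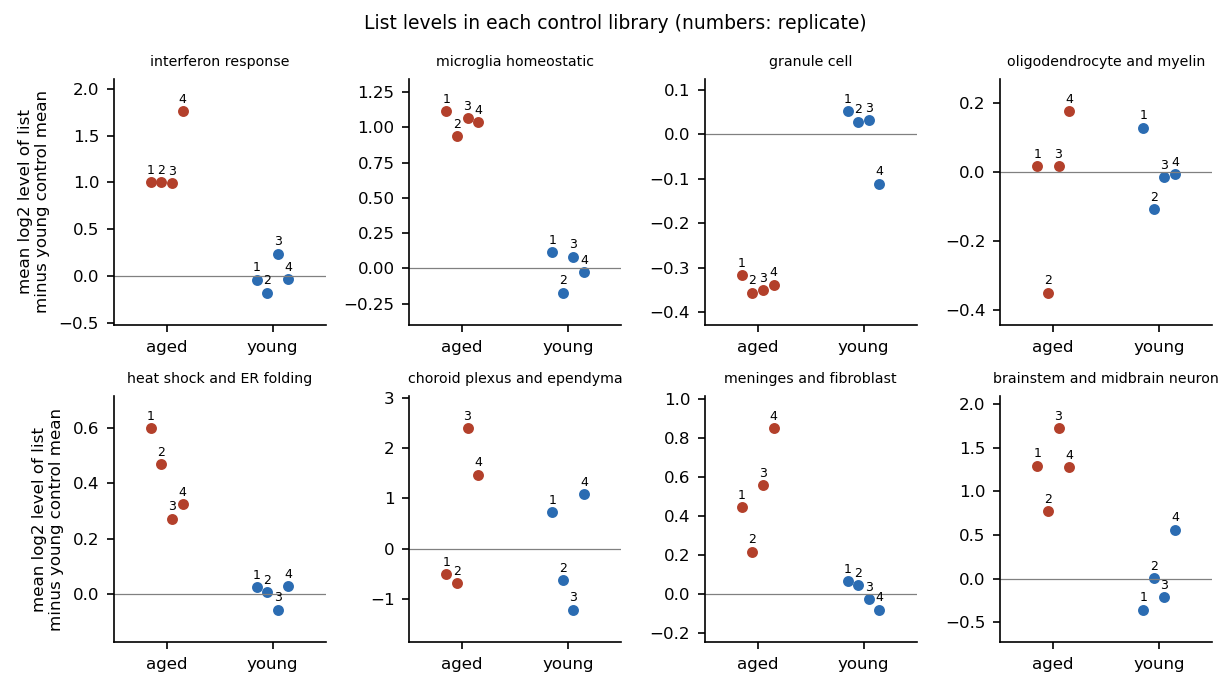
Mean log2 level of 8 lists in each control library, relative to the mean of the 4 young control libraries (0 line), aged left and young right, with the replicate number above each point. The granule cell list is -0.36 to -0.32 in aged and -0.11 to 0.05 in young libraries, while the choroid plexus list is high in 2 libraries of each age.

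Clock genes differed in opposite directions by arm of the loop. In the circadian clock, the activators encoded by Arntl and Clock drive the Per genes, whose proteins then repress them. Per2 had 2452, 1865, 1813 and 2101 normalized counts in aged control mice and 594, 614, 497 and 505 in young control mice (1.89 ± 0.16, adjusted p = 3.32e-07). Per3 had 1829, 1676, 1762 and 1779 in aged control mice and 849, 952, 946 and 1066 in young control mice (0.89). Hlf, an output transcription factor, had 3835, 3522, 3353 and 3602 in aged control mice, against 2305, 2219, 2240.1 and 2107 in young control mice (0.69). Nr1d2, a repressor of Arntl, had 5324, 5188, 4975 and 4969 in aged control mice and 3298, 3570.1, 3393 and 3149 in young control mice (0.61). All 4 genes were higher in each aged library than in any young one.

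The activators were lower. Arntl had 843, 1072, 1073 and 909.5 normalized counts in aged control mice and 1474, 1512, 1585 and 1451 in young control mice (-0.63 ± 0.07, adjusted p = 4.14e-06). Npas2, a Clock paralog, had 111, 115, 126 and 150.1 in aged control mice and 212, 172, 191 and 234 in young control mice (-0.68). Clock itself fell by 0.23 on the log2 scale. Per1 spread more than the others, with 3169.8, 2845, 4026 and 3365 in aged control mice, against 1520.2, 2709.5, 2189 and 1571 in young control mice (0.78), and its call was lost without the libraries high in Ttr (adjusted p = 0.126). In all, 11 of 23 clock genes rose and 3 fell. The clock genes follow the hour of the day, and with the hour of collection not given, hour and age cannot be told apart.

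Clock gene promoters were searched for the E-box CACGTG, the site of the ARNTL and CLOCK proteins, and for the D-box TTATGTAA, the site of HLF and its relatives, on both strands. Of 19 clock genes with a window, 5 held an E-box (26.3%, against 8.09% of all genes) and 1, Per3, held a D-box (5.26%, against 1.11%). The stretches are shown for named genes of the list, with the match in capitals.
Per1 (chr11:69098763-69098808, forward strand): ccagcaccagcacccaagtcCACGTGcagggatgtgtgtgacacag
Per3 (chr4:151044843-151044890, reverse strand): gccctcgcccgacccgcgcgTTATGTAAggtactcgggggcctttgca
Per3 (chr4:151044796-151044843, reverse strand): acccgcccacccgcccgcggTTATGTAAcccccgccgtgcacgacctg
No match in these windows says nothing of sites elsewhere in a gene.

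**Figure D4:**
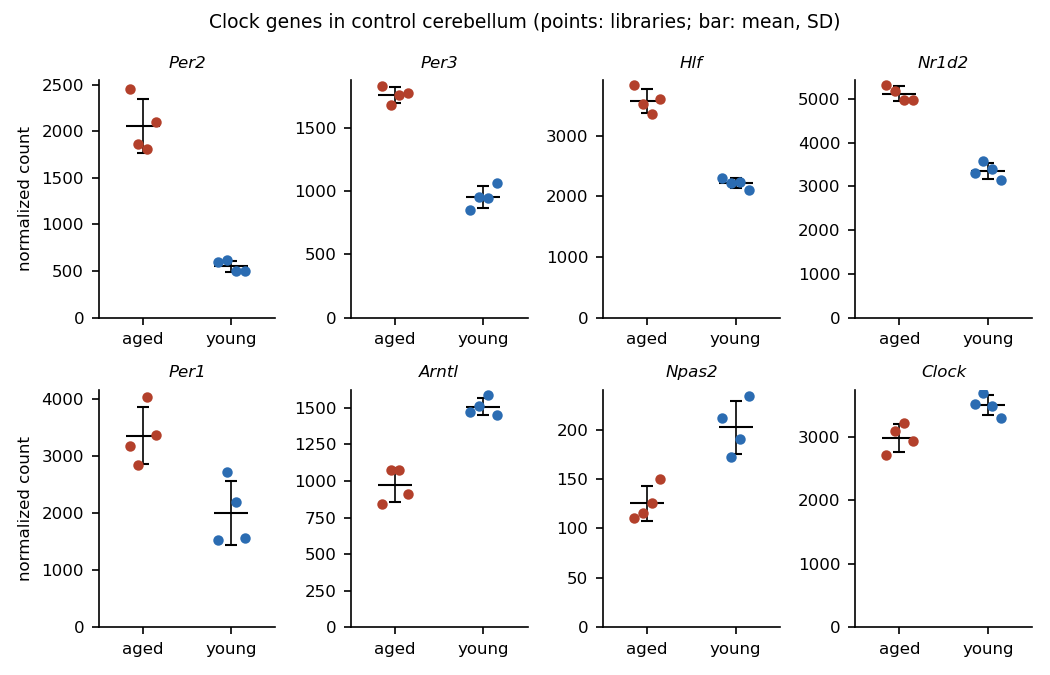
Normalized counts of 8 clock genes, with each library as a point (aged left, young right) and the mean with its SD as a bar; the y axes start at 0. Per2 lies between 1813 and 2452 in aged libraries and between 497 and 614 in young libraries, and Arntl between 843 and 1073 in aged and between 1451 and 1585 in young libraries.

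Immediate early genes, which neuronal activity induces within a short time, varied between libraries of the same age. Fos had 676, 525, 1384 and 908 normalized counts in aged control mice and 92, 1093, 491 and 345 in young control mice, and the groups overlapped (adjusted p = 0.0807). Of 30 genes, 10 rose (33.3%, against 15.3% of all genes tested) and 7 fell (23.3%, against 16%), with a median of 0.29. Without the libraries high in Ttr the median was -0.13, with 4 higher and 6 lower. Klf4, a transcription factor also typical of endothelium, had 248, 249, 316 and 318 in aged control mice, against 75.7, 114, 93.5 and 74.2 in young control mice (1.66). Its relative Klf2 had 305, 309.8, 285 and 365 in aged control mice and 108, 130.3, 116 and 114 in young control mice (1.42). Gadd45b, a stress response gene, had 126, 116, 159 and 147 in aged control mice and 282, 246, 276 and 315 in young control mice (-1.03 ± 0.11, adjusted p = 2.50e-06). Egr4, a zinc finger gene induced by neuronal activity, had 103, 139.5, 145 and 109 in aged control mice and 211, 309, 303 and 164 in young control mice (-0.95), with every aged library below every young one.

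Chaperone genes, including those of the endoplasmic reticulum (ER), were mostly higher in aged control mice. Of 38 heat shock and ER folding genes, 29 rose and none fell (median 0.39), and 30 rose without the libraries high in Ttr. Pdia4, a disulfide isomerase gene, had 1349, 1155, 892 and 939.6 normalized counts in aged control mice and 632, 638, 604 and 584 in young control mice (0.80 ± 0.10, adjusted p = 9.66e-06). Xbp1, a transcription factor of the unfolded protein response, had 3184, 3049, 2152 and 2202 in aged control mice and 1548, 1593, 1501 and 1421 in young control mice (0.78). Hsph1, a cytosolic heat shock protein gene, had 3545, 3455, 2943 and 3311 in aged control mice, against 2511, 2485, 2442 and 2354 in young control mice (0.43). Hspa5, the ER chaperone BiP, had 8805, 8674, 5976 and 6145 in aged control mice and 4394, 4456, 4484 and 4219.9 in young control mice (0.73). Aged control 1 and 2 were above aged control 3 and 4, the aged libraries high in Ttr, in each of these 4 genes. The cytosolic Hsp90aa1 and Hsp90ab1 had differences of 0.01 and 0.07.

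Promoters of this list were searched for the ER stress response element on both strands, as CCAAT, 9 bases of any kind and CCACG. Of 32 genes with a window, 7 held a match (21.9%), against 0.137% of all genes. A heat shock element (GAA, TTC and GAA, with 2 bases of any kind between them) was found in 3 of the 32 (9.38%, against 0.662%). Hspd1 and Hspe1, both among the 3, hold it in the same stretch of chromosome 1, read from opposite strands. That stretch is counted for both genes. The stretches below are from genes that rose, 3 of which (Hspa5, Pdia6 and Creld2) were chosen after their values were seen, with the match in capitals.
Dnajc3 (chr14:118937807-118937865, forward strand): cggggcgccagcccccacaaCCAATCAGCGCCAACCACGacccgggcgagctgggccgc
Hspa5 (chr2:34772005-34772063, forward strand): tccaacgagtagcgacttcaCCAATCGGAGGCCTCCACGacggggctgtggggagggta
Pdia6 (chr12:17266471-17266529, forward strand): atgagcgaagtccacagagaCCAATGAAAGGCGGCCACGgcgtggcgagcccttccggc
Creld2 (chr15:88819500-88819558, forward strand): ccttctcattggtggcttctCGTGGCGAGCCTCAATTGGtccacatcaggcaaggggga
Their log2 differences were 0.34, 0.73, 0.56 and 0.64. Canx, the calnexin gene, held a match and had a difference of 0.12 (adjusted p = 0.0608). In none of the 125 windows of list members did matches of different motifs overlap.

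Cytosolic ribosomal protein genes shifted by a small amount in 1 direction. Of 82 genes, 49 rose and none fell, with a median of 0.17. Rpl14 had 2969, 2699, 2885 and 2862 normalized counts in aged control mice and 2359, 2271, 2290.3 and 2541 in young control mice (0.27 ± 0.04, adjusted p = 8.08e-05). Rps24 had 3669, 3326, 3471 and 3299 in aged control mice and 2742, 2820.2, 2667 and 2999.6 in young control mice (0.29). Young control 4 was the highest young library in both. Ribosomal protein genes have many processed pseudogene copies, so some of their reads may be assigned to copies.

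Of 36 nuclear genes of respiratory complex I, 7 fell (19.4%, against 16% of all genes tested) and none rose (median -0.08). Of 43 genes of complexes II to V, 13 fell (30.2%) and none rose (median -0.09). Cyc1, a cytochrome of complex III, had 2384, 2586, 2389.9 and 2410 normalized counts in aged control mice and 2914, 2754, 2734 and 2983 in young control mice (-0.22). Without the libraries high in Ttr none of the complex I genes and 1 of the complexes II to V genes fell. Of 13 genes on mitochondrial DNA, 2 rose (15.4%, against 15.3% of all genes tested) and none fell. Without aged control 2, 2 of them fell, and 1 fell without young control 3. Among the 13, mt-Nd3 rose with 734, 835, 854 and 686 in aged control mice, against 551, 580.3, 422 and 498 in young control mice (0.60). Mitochondrial ribosomal protein genes had 3 of 80 higher and 12 lower (15%, a share close to that of all genes), and 1 of each without the libraries high in Ttr.

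Among 12 acyl-CoA synthetase genes, the family of Acsl6, 4 fell and none rose. Slc27a1, a fatty acid transport protein with synthetase activity, had 2883, 2814, 2615 and 2791 normalized counts in aged control mice, against 3448, 3279.9, 3356 and 3359 in young control mice (-0.28). Its relative Slc27a4 had 1487, 1657, 1475 and 1470.3 in aged control mice and 1893, 1903, 1856 and 1842 in young control mice (-0.30). Acss2, which makes acetyl-CoA, had 1368, 1471, 1387 and 1463 in aged control mice and 1722, 1649, 1698 and 1599.8 in young control mice (-0.23). Acsl6 was the fourth. The enzymes that make or break down lipid mediators had 15 of 41 higher (36.6%, against 15.3% of all genes tested) and 6 lower (14.6%, against 16%). Hpgd and Hpgds, which degrade and make prostaglandins, rose by 0.65 and 0.55 on the log2 scale, and Ptges3, a prostaglandin E synthase and Hsp90 partner, had 2093, 1971, 1987 and 2020.2 in aged control mice and 1540, 1592, 1512 and 1532 in young control mice (0.39). Pla2g4e, a phospholipase gene, had 189.6, 235, 259 and 248 in aged control mice and 369, 406, 416 and 602 in young control mice (-0.93). In the fit without the libraries high in Ttr, 6 of these enzymes rose and 5 fell.

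Clustered protocadherins, adhesion proteins by which a neuron tells its own branches from others, had 23 of 56 genes higher and 6 lower (median 0.27). Pcdhgb6 had 963, 881, 1001 and 1028 normalized counts in aged control mice and 511, 542, 575 and 590 in young control mice (0.80 ± 0.08, adjusted p = 1.78e-06), and Pcdhb3 had 134, 143, 147 and 143 in aged control mice and 73.3, 97.1, 72.3 and 80.8 in young control mice (0.81). Pcdhb18 was among those that fell (166, 134, 187 and 149 in aged control mice and 218, 245, 242 and 230.2 in young control mice, -0.56). The gamma genes share their last exons on chromosome 18, so reads there cannot be given to 1 member. When the libraries high in Ttr were left out, 13 rose and 5 fell, and 3 fell without young control 2.

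Glucocorticoid and fasting response genes were mixed, with 5 of 26 higher (19.2%, against 15.3% of all genes tested) and 8 lower (30.8%, against 16%). Mt1, a metallothionein gene, had 3862, 3924, 4435 and 4478 normalized counts in aged control mice and 7306, 7516, 7834 and 8067 in young control mice (-0.88 ± 0.09, adjusted p = 1.08e-06). Fam107a, induced by stress hormones, had 14540.2, 15819, 14989.8 and 13222 in aged control mice and 24538, 21384, 21907 and 28399.5 in young control mice (-0.71). Cdkn1a, the p21 cell cycle inhibitor and a common senescence marker, was lower with 541, 648, 820.4 and 967 in aged control mice, against 1126, 1438, 1112 and 1172 in young control mice (-0.73, adjusted p = 0.013), and without aged control 1 it missed the threshold (adjusted p = 0.0532). Of 23 genes of the p53 and senescence list, 3 rose (13%) and 4 fell (17.4%), shares close to those of all genes. Txnip, a glucose-responsive gene, rose by 0.67. With the libraries high in Ttr left out, the glucocorticoid and fasting list had 1 gene higher and 8 lower, and the p53 list had none higher and 3 lower. Without young control 3, or without aged control 3, the p53 list had 1 higher and 2 lower, and without aged control 2 it had 2 lower.

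Vascular genes that differed were mostly higher, and matrix genes had no single direction. Of 41 endothelial and mural genes, 11 rose and 2 fell, among them Slco1a4, a transporter of the blood-brain barrier, with 963, 846, 1045 and 963 normalized counts in aged control mice and 1417, 1447, 1439 and 1565 in young control mice (-0.62). Sox17, an arterial transcription factor, rose by 0.73. Of 49 collagen and matrix genes, 9 rose and 9 fell (18.4% each, against 15.3% and 16% of all genes tested). Timp3, an inhibitor of metalloproteases, had 1741, 1728, 1771 and 1987 in aged control mice and 1364, 1346, 1224 and 1280.4 in young control mice (0.47). Col5a3, a collagen gene, had 263, 235, 259 and 302 in aged control mice, against 414, 393, 438 and 458 in young control mice (-0.69), and Mmp16, a membrane metalloprotease gene, had 174, 186, 209.7 and 200.4 in aged control mice and 311, 293, 309 and 317 in young control mice (-0.67). In the fit without the libraries high in Ttr, 7 vascular genes rose and 2 fell, and 5 matrix genes rose and 6 fell. Without young control 2 or 3, 6 vascular genes rose.

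Markers of tissue around the cerebellum moved beside some of these results. Meningeal and fibroblast markers had 10 of 21 higher and none lower, with a summed level of 14720 to 22720 normalized counts in aged control mice and 13420 to 15880 in young control mice. Lum, a fibroblast proteoglycan gene, had 83.4, 56, 95.7 and 82.3 in aged control mice and 23.3, 33.2, 23.1 and 30.1 in young control mice (1.49), and Dcn, decorin, had 532, 401, 477 and 494 in aged control mice and 291, 301, 259 and 321 in young control mice (0.69). Col1a1 and Col3a1, the main collagens of fibroblasts, had differences of 0.14 and -0.40. When the libraries high in Ttr were left out, 2 of the 21 rose. The choroid plexus and ependyma list had 3 of 26 higher (11.5%, against 15.3% of all genes tested) and 1 lower. Its sums were 9362 to 60000 in aged control mice and 9191 to 24320 in young control mice. The number that rose there was 1 without young control 3 and 5 without aged Acsl6-/- 1. The part of these tissues in the vascular, matrix and Klf results was not tested.

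Some brainstem and midbrain markers were higher in aged control mice. Of 30 listed genes 12 were tested, and 18, among them Chat, Slc6a4 and the Hox genes, were not analysed here. Of the 12, 3 rose (25%, against 15.3% of all genes tested) and none fell. Their sums were 5048 to 5705 normalized counts in aged control mice and 4929 to 5061 in young control mice, over the 12 genes. Glra1, a glycine receptor subunit gene, had 61.6, 41.7, 53.6 and 67.7 in aged control mice and 11.6, 18.4, 8.7 and 21.6 in young control mice (1.89). Sncg, gamma-synuclein, had 67.3, 53.8, 68.1 and 69.5 in aged control mice and 14, 14.8, 16.4 and 29.1 in young control mice (1.80), and Tac1, the substance P precursor, had 55, 38.4, 36 and 25.6 in aged control mice and 5.8, 20.9, 3.9 and 4.7 in young control mice (2.26). Baiap3, a vesicle release gene of neuroendocrine neurons, had 145, 281, 151 and 171 in aged control mice, against 31.4, 39.3, 23.1 and 25.4 in young control mice (2.58 ± 0.57, adjusted p = 0.00212). Slc6a2, the noradrenaline transporter gene, had 23.7, 5.5, 207 and 28.4 in aged control mice, with aged control 3 far above the rest. It had 1.2, 1.9 and 13.2 in young control 1, 3 and 4, and no reads in young control 2. The part of brainstem tissue in the rises of Sst and Baiap3 was not tested.

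The share of called genes also varied with the genes' own properties. Among the 4261 genes with the highest mean level, 27.6% fell and 14.5% rose, against 6.34% and 13.1% in the 4261 with the lowest. Among the 4249 genes with the longest transcripts 20.4% rose and 16.6% fell, against 10.7% and 12% in the 4249 with the shortest. On the X chromosome 19.8% of 565 genes rose and 11.7% fell, and some other chromosomes had like shares. On chromosomes 18 and 12, 19.9% and 19.1% rose, and on chromosomes 13 and 16, 11.2% and 11.7% fell.

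The age difference of control mice was then set beside that of Acsl6-/- mice, where 1981 genes rose (11.6%) and 1976 fell (11.6%) between aged and young Acsl6-/- mice. The 2 comparisons share no library. Of the genes that rose in control mice, 1388 (53.2%) rose in Acsl6-/- mice, which is 70.1% of those that rose there, and of the genes that fell in control mice 1388 (51.0%) fell in Acsl6-/- mice (70.2% of those). Opposite calls were rare, with 7 genes higher in control and lower in Acsl6-/- mice and 2 the other way. With upper quartile rescaling, 2382 rose and 1568 fell in Acsl6-/- mice and 2954 rose and 2345 fell in control mice.

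The difference between the 2 age effects passed the test for 3 genes (0.0176%), with 1707 genes (10% of the genes tested) at an unadjusted p under 0.05. The age difference of Klf2 was 1.42 in control and 0.28 in Acsl6-/- mice (difference 1.14 ± 0.18, adjusted p = 0.0299). Utp14b, a gene of ribosome assembly that lies in the same place as Acsl3, had age differences of 0.97 in control and 0.10 in Acsl6-/- mice (difference 0.87 ± 0.13, adjusted p = 0.0296). Plcb1, a phospholipase of neuronal signaling, had -0.24 and 0.16 (difference -0.40 ± 0.06, adjusted p = 0.0299). These calls depended on the libraries used: leaving out 1 library gave between 0 and 11 genes, with 11 without aged control 2, and limma called 0 without the libraries high in Ttr (1790 at an unadjusted p under 0.05). DESeq2 called 87 and edgeR 3.

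Of the list members, only Klf2 passed the test of this difference, so the counts of the lists are given side by side. Homeostatic microglial genes had 23 of 24 higher and 1 lower in Acsl6-/- mice, with medians of 1.02 in control and 1.11 in Acsl6-/- mice. Disease-associated microglial genes had 22 of 25 higher in both genotypes, with medians of 0.92 in control and 1.14 in Acsl6-/- mice. For the difference, 10 of the 25 had an unadjusted p under 0.05, against 10% of all genes tested. The mean log2 level of this microglial list above the young control mean was 0.94 to 1.18 in aged control libraries. It was 1.23 to 1.70 in aged Acsl6-/- libraries. Granule cell genes had 20 of 30 lower there (medians -0.28 and -0.24). Cytosolic ribosomal protein genes had 49 of 82 higher in control mice, against 1 higher and 13 lower in Acsl6-/- mice (medians 0.17 and -0.04). Of the 82, 59 had an unadjusted p under 0.05 for the difference, against 10% of all genes tested. Genes of complexes II to V had 36 of 43 lower in Acsl6-/- mice, against 13 in control mice. Myelin genes had 1 higher and 15 lower in Acsl6-/- mice, against 5 and 4 in control mice. Sst, Glra1, Sncg and Baiap3, which rose in control mice, had age differences of -0.43, 0.17, 0.36 and -0.07 in Acsl6-/- mice. They passed no test there. Tac1, which also rose in control mice, had -1.47 in Acsl6-/- mice (adjusted p = 0.0656), and the difference was 3.73 ± 0.79 (adjusted p = 0.128). The brainstem list itself was 1.07 and 2.01 above the young control mean in young Acsl6-/- 1 and 2, and 2.33 above it in aged Acsl6-/- 1, on the log2 scale. The part of brainstem tissue in these differences was not tested.

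**Figure D5:**
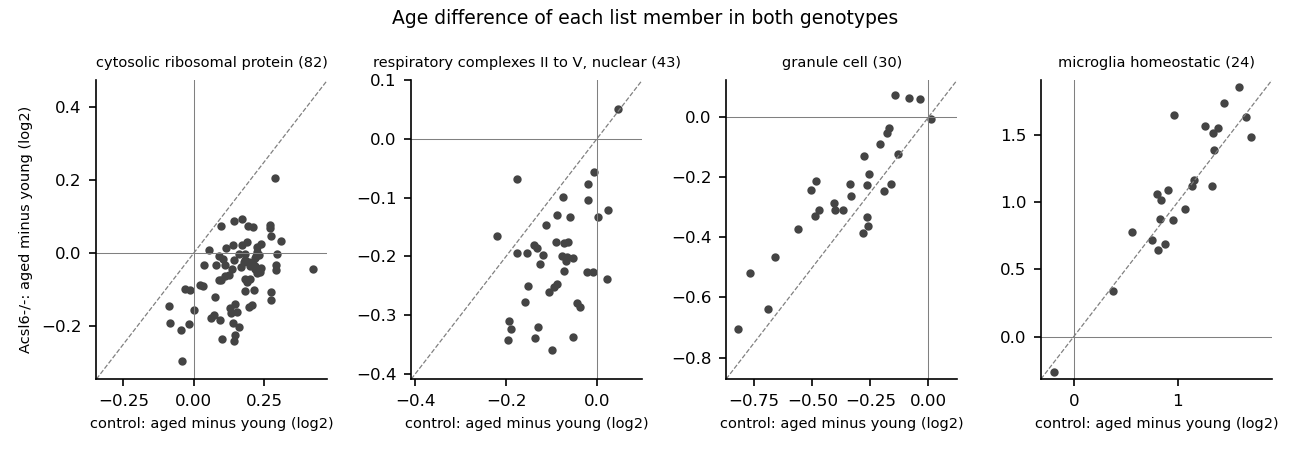
Log2 age difference of each gene in control mice (x axis) and in Acsl6-/- mice (y axis) for 4 lists, with a dashed line where both are equal. Ribosomal protein genes lie below the line with medians of 0.17 in control and -0.04 in Acsl6-/- mice, while homeostatic microglial genes lie along it with medians of 1.02 and 1.11.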

How the data were processed

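Poly(A) RNA of cerebellum was sequenced as paired reads on 1 lane of an Illumina HiSeq. Per the labels and the study's methods, the authors used Trimmomatic 0.36 for trimming and STAR 2.5.2b for alignment to GRCm38 and counted exon reads per gene with featureCounts; the strand setting is not given in the sources used here. The deposited signal, prepared by the authors, is normalized counts (counts divided by 1 size factor per library) for 17074 genes in 16 libraries, with a lowest mean of 9.31 per gene. Each library's values were whole multiples of a single step (100%, tolerance 0.001), so read counts could be recovered (16953548 to 27569428 per control library).

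Here, log2(value + 1) of 17042 genes, those averaging 10 or more, was fitted with limma 3.58.1 (R 4.3.3) as 1 model of 4 groups with a variance trend. Benjamini-Hochberg adjustment of the two-sided p values ran over these 17042 genes. The labels do not say that the libraries of a group came from separate mice, so p values measure the spread between these libraries. Replicate numbers did not pair the libraries: deviations of same-numbered aged and young control libraries correlated at -0.07, 0.09, -0.13 and 0.04.

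Alternatives were a pseudocount of 5, no filter, a mean of at least 50, quantile normalization, upper quartile rescaling, the 2 control groups alone, array weights, a replicate block, edgeR 4.0.16 and DESeq2 1.42.0 on recovered reads, leaving out the 5 libraries with Ttr above 5000 (4 control and 1 Acsl6-/-), removing a trend on transcript length (lowess span of 0.3), and leaving out each library. No set test was run: 41 gene lists are described by counts and medians. Lists share some members, so their counts are not separate. The members and lists were chosen with earlier results of these data known. Named genes are, in each direction, the 15 called genes of largest difference (predicted gene models left out, groups apart, higher mean of at least 50), up to 4 per direction and list with the smallest p, called genes of the age by genotype test, and Acsl6, Ttr, Gm42418 and Xist. Acsl3, Aqp1, Calb1, Canx, Col1a1, Col3a1, Creld2, Etv1, Folr1, Fos, Gabra6, Hsp90aa1, Hsp90ab1, Hspa5, Kl, Lcn2, Mbp, Neurod2, Pcp2, Pdia6, Slc6a2, Sparc, Spp1, Stat2, Timp1 and Zic1 are exceptions to this rule, picked with their values in view. Genes that overlap another gene share reads with it. Some genes that met the rule are not reported here. Promoter stretches are from RefSeq (GRCm38.p6), in which 11959 tested genes had a window. The shares of all genes that hold a motif are over 27025 genes with a window, those not tested included.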

Additional observations from a re-analysis of the deposited data

Results flagged for a closer look

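Single libraries stood far from the other 3 of their group in 25 of 266 groups examined (the 133 genes of the naming rule that are named in the text, at 2 ages, 9.4%), where chance alone gives about 1 in 20; values are normalized counts. In aged control 1, Ntf3 was 50.2 (the others 19.9 to 22.9) and Mpeg1 509 (458 to 462). Aged control 2 had Grin2c at 8153 (8822 to 8863), Sncg at 53.8 (67.3 to 69.5), Cyc1 at 2586 (2384 to 2410) and Slc27a4 at 1657 (1470 to 1487). Aged control 4 had Ifit3 at 1070 (350 to 458), Tmem119 at 182 (145 to 151) and Timp3 at 1987 (1728 to 1771).

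Among young libraries, young control 4 stood apart in 10 genes. It was the lowest for Necab3 at 238 (667 to 714), Mybpc3 at 1271 (1844 to 1928), E2f1 at 34.8 (62.9 to 65.2), Calb2 at 4847 (7879 to 8124), Ptprc at 25.4 (33.8 to 34.9), Scn2a at 10170 (11720 to 11990), Ccnd1 at 470 (665 to 701) and Plcb1 at 2432 (2572 to 2581). It was the highest for Sncg at 29.1 (14.0 to 16.4) and Homer2 at 597 (402 to 427). Young control 1 was the highest for C4b at 296 (201 to 214), Mkrn3 at 121 (99.6 to 103), Aqp4 at 4162 (3876 to 3910) and Sema3a at 433 (381 to 390). Young control 2 was the highest for Nlrc5 at 28.3 (14.5 to 15.97) and Tac1 at 20.9 (3.86 to 5.82).

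The age difference of 3 genes differed between control and Acsl6-/- mice by limma's test of the difference itself. Control minus Acsl6-/- age difference was 0.87 for Utp14b, 1.14 for Klf2 and -0.40 for Plcb1 on the log2 scale.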

How the results depend on the processing

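The count of age calls in control mice stayed within 1.5 times of 5333 under the alternatives in pseudocount, filter, scaling, sample choice, weights and tool: edgeR called 2617 genes higher and 2776 lower, and DESeq2 2586 and 2717. It fell to 2773 (1350 higher and 1423 lower) without the 5 libraries high in Ttr (4 control and 1 Acsl6-/-), a fit with fewer samples. With 1 library left out, the lowest count was 4388 (young control 1 left out) and the highest 5408 (aged Acsl6-/- 2 left out), with 2142 to 2660 higher and 2224 to 2766 lower. The age by genotype count of 3 was 6 with array weights, 87 with DESeq2, 1 with the length trend removed and 0 without the libraries high in Ttr, and ranged from 0 to 11 without 1 library; the cause was not tested. Since the numbers do not pair the libraries, the replicate block is given only here: it called 2476 genes higher and 2556 lower for age, and 4 for age by genotype. Of 244 genes that met the naming rule, 26 lost the call without some 1 library. Of their 6817 results under alternatives, 6632 kept call and direction, 184 lost the call (65 of them without the libraries high in Ttr), and 1 reversed: mt-Co1, which was 0.12 higher in aged control mice, was -0.29 with quantile normalization (adjusted p = 0.206). Genes below a mean of 9.31 were not analysed here.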

Other observations

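Lysosomal genes had 17 of 44 higher and 6 lower in aged control mice (median 0.12). Hexa, a hexosaminidase subunit gene, had 856, 850.2, 866 and 842 normalized counts in aged control mice and 633, 649, 614 and 591 in young control mice (0.46). Ctsh, a cathepsin gene, had 239, 209, 229.6 and 231 in aged control mice and 143, 139, 137 and 127 in young control mice (0.73). On the lower side, Mcoln1, a lysosomal calcium channel gene, had 1966, 1953, 1945 and 2007 in aged control mice and 2335, 2348, 2328 and 2299 in young control mice (-0.24). With the libraries high in Ttr left out, 11 rose and 1 fell. Proteasome genes had 1 of 35 higher and 5 lower (14.3%, against 16% of all genes tested), among the lower Psmd8 (-0.19). Cholesterol synthesis genes had 1 of 25 higher and 4 lower (16%, the same share as all genes). Among the lower was Mvd, an enzyme of the mevalonate pathway, at 256, 274, 249.5 and 251 in aged control mice and 299, 354, 382 and 356 in young control mice (-0.43).

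Axon guidance genes had 11 of 51 higher and 11 lower (21.6% each, against 15.3% and 16% of all genes tested). Epha8, an ephrin receptor gene, had 1014, 1169.9, 948 and 1003 normalized counts in aged control mice and 1477, 1508, 1547 and 1432 in young control mice (-0.53), and Ephb2 fell by 0.61. Unc5d, a netrin receptor gene, had 307, 412, 328 and 379.7 in aged control mice and 194, 229, 223 and 222 in young control mice (0.71), and Sema3a, a repellent cue, had 625, 566, 597 and 542 in aged control mice and 433, 381, 389.6 and 382 in young control mice (0.55). Of 29 genes of developing neurons and the cell cycle, 5 rose and 3 fell (17.2% and 10.3%, against 15.3% and 16% of all genes tested). Ccnd1 and Ccnd2, both D-type cyclins, differed in opposite directions: Ccnd1 had 352, 299, 316 and 318 in aged control mice and 674, 701, 665 and 469.7 in young control mice (-0.95), while Ccnd2 had 212, 158, 253 and 198 in aged control mice and 96.6, 89.7, 108 and 142 in young control mice (0.91). Mcm6, a DNA replication helicase gene, had 156, 143, 172 and 196 in aged control mice and 58.2, 92.2, 77.1 and 78.9 in young control mice (1.12). Which cells carry these transcripts was not tested.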
